A study of Mus musculus with 2 samples.

Results

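Immunoglobulin variable (V) segments are the gene pieces that give an antibody its binding site. All rows of the count table whose names begin with Ighv (heavy chain), Igkv (kappa light chain) or Iglv (lambda light chain) were taken. Those with 20 or more unique molecular identifiers (UMIs, the deduplicated molecule counts of droplet sequencing) summed over the 20 deposited cell clusters were kept. The members were thus chosen by the same counts that are described here. This gave 56 segments of 31053 genes, of which 25 were heavy, 28 kappa and 3 lambda. They hold 4308 of the 5238 UMIs of all 348 V rows, or 82.2%. Of the other rows, 148 had 0 UMIs. The segments just inside the minimum were Igkv6-17, Ighv9-3 and Ighv8-12 with 20 UMIs each, and those just outside were Igkv8-19, Ighv1-53, Ighv8-8 and Ighv1-81 with 19 each. The 31 rows for D and J segments had 0 UMIs.

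The cells were live leukocytes sorted from the arch and thoracic aorta as CD45-positive and CD3-negative. All mice were Apoe-/-, which lack apolipoprotein E, and ate a western diet for 4 weeks. They received weekly saline (2742 cells, 1 library) or nt-LNA at 30 mg/kg (4871 cells, 1 library). The sources used here do not give the number, sex or age of the mice. UMIs are deposited as sums over both libraries within a cluster, so no V segment could be compared between treatments. Clusters 1, 2, 4 and 12, which the deposited annotation names B cells, are compared here, and everything below is a description with no test. The summed level of 6 B cell markers was 4495 to 11361 counts per 1000000 UMIs of the cluster (CPM) in these 4 clusters and at most 1331 CPM in the other 16. The minimum of 20 UMIs favours segments that are frequent in any 1 cluster, above all the cluster with the most V UMIs, and the clusters were themselves made from expression values. Intervals in parentheses are exact 95% intervals that cover counting error only. UMIs from 1 cell, or from cells of 1 clone, are not independent, so the true uncertainty of a share is wider than its interval.

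A developing B cell joins 1 heavy V segment to a D and a J segment and 1 light V segment to a J segment, and keeps that choice in all its descendants. B-1 cells are a B cell lineage of the serous cavities and other sites that secretes natural antibodies without immunization. A few V segments recur in these antibodies. Ighv11-2 and Ighv12-3, paired with Igkv14-126 and Igkv4-91, bind phosphatidylcholine, and Ighv7-1 with Igkv7-33 forms the classic phosphorylcholine-binding natural antibodies, which also recognise oxidized phospholipids. The B-1 segments are shown first because the results turn on them. The sequences are the last 150 bases of each GENCODE M21 transcript (GRCm38 build, coding strand), 5′ to 3′. Capitals mark TATTACTG or TATTTCTG, searched on the coding strand only, the end of the conserved framework just before the most variable loop of the antibody. Of the 56 members, 41 (73.2%) hold such a match in their last 60 bases, against 0.388% of transcripts of other genes. Ighv11-1 is shown beside Ighv11-2 because they share 148 of these 150 bases.
Ighv11-2: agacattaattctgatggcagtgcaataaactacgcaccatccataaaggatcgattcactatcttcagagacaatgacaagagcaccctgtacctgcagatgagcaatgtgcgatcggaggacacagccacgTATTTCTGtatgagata
Ighv11-1: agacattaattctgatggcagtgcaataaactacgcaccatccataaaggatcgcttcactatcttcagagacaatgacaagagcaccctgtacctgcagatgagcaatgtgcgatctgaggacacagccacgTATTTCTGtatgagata
Ighv12-3: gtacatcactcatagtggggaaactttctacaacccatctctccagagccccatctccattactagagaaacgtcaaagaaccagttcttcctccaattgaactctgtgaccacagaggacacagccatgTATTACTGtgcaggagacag
Ighv7-1: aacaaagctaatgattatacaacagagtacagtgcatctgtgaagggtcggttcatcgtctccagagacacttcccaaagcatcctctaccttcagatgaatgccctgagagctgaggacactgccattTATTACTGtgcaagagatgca
Igkv14-126: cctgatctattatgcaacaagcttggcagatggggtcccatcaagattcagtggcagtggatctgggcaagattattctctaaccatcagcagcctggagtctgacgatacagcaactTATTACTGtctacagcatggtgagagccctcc

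On GRCm38, Ighv11-2 lies at chr12:114048241-114048812, Ighv12-3 at chr12:114366521-114366954 and Ighv7-1 at chr12:113896408-113896946, all on the minus strand. Igkv14-126 lies at chr6:67896172-67896642 on the plus strand. Each is annotated as an immunoglobulin V gene. The submitters' processing notes name the build mm9, and the deposited files hold no coordinates.

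Transcripts of the B-1 V segments that are members were found almost entirely in cluster 4. Ighv11-2 gave 60 UMIs in cluster 4 and 1, 0 and 1 in clusters 1, 2 and 12. Ighv12-3 gave 22 UMIs in cluster 4 and 0, 0 and 1 in clusters 1, 2 and 12. Ighv7-1 gave 31 in cluster 4, 0 in the other 3 B cell clusters and 1 in cluster 15. Igkv14-126, the light partner of Ighv11-2, gave 104 UMIs in cluster 4, 2 in cluster 2 and 0 in the remaining 18 clusters. Each of these segments was thus high in cluster 4 and at or near 0 elsewhere.

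Here and below, unless all rows are named, heavy and light V UMIs are those of the 25 heavy and 31 light members. As shares of the V UMIs of their chain, the 3 heavy segments made up 22.0% (18.5 to 25.8) of heavy V UMIs in cluster 4. They made up 0.676% (0.0171 to 3.71) in cluster 1 and 3.33% (0.406 to 11.5) in cluster 12. In cluster 2 they had 0 of 91 heavy V UMIs, which allows a share of up to 3.30% by the limit of 3 counts of the total used for every 0 here (the exact upper end is 3.97%). The cluster 4 share was 32.5 times that of cluster 1 (5.72 to 1296), an interval that is wide because cluster 1 had 1 UMI, and at least 6.67-fold higher than in cluster 2 when set against that limit, which leaves out the error of the cluster 4 share. With all 348 V rows counted, the heavy B-1 share was 19.0% in cluster 4 and 0.377%, 0% and 1.83% in clusters 1, 2 and 12. Igkv14-126 took 5.37% (4.41 to 6.47) of light V UMIs in cluster 4 and 1.09% (0.133 to 3.89) in cluster 2. It had 0 of 196 light V UMIs in cluster 1 and 0 of 145 in cluster 12, which allow up to 1.53% and 2.07%. Single heavy segments overlapped more: the interval of Ighv12-3 in cluster 4 (2.70 to 6.41%) lay within that of cluster 12 (0.0422 to 8.94%).

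**Figure D1:**
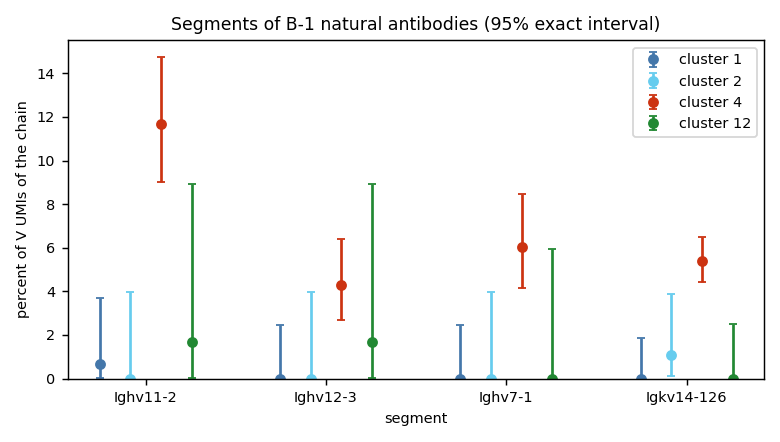
Share of each B-1 segment among the V UMIs of its chain, in percent, in B cell clusters 1, 2, 4 and 12. Points are shares and bars exact 95% intervals; cluster 4 has the highest point for every segment, from 4.28% for Ighv12-3 to 11.7% for Ighv11-2.

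The other 3 segments of this list were scarce. Igkv4-91, the light partner of Ighv12-3, had 9 UMIs in all, 5 of them in cluster 4, and is below the minimum. Ighv11-1 and Igkv7-33 had 0 UMIs in every cluster. Reads from bases that Ighv11-1 and Ighv11-2 share cannot be told apart, but 82.6% of the 100-base windows of the Ighv11-2 transcript occur in no other gene's transcript. Together the 4 B-1 members had 93.9% (90.04 to 96.6) of their 231 UMIs in cluster 4. None of the 4 would reach the minimum without its cluster 4 UMIs, so this high percentage is in part set by the choice of members. Igkv4-91, with 55.6% of its UMIs in cluster 4, is not in this sum. The other 52 members had 54.7% (53.2 to 56.3) of theirs there, with a median over members of 37.1%. Besides the 4 B-1 members, the 5 segments with over 80% of their UMIs in cluster 4 were Igkv15-103, Igkv13-85, Igkv8-27, Igkv8-21 and Igkv3-12.

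Cluster 2 held RNA of B-1 subset genes but only 2 UMIs of the 4 B-1 members, both of Igkv14-126. Bhlhe41, a transcription factor of B-1a cells, stood at 15.02, 75.3, 117 and 39.7 CPM in clusters 1, 2, 4 and 12. Zbtb32, which restrains plasma cell output and is high in B-1 cells, stood at 4.93, 51.7, 81.0 and 24.2 CPM. Both were thus lowest in cluster 1 and highest in cluster 4. Other genes of the B-1 marker list were higher in cluster 2 than in cluster 4: Ahnak (1205 against 718 CPM), Spn (36.7 against 20.1), Cd9 (131 against 114) and Cd5 (below). Plscr1 (55.0 against 62.2) and S100a6 (3531 against 3629) were higher in cluster 4. The intervals of Cd9, Plscr1 and S100a6 overlap. The whole list summed to 5097 CPM in cluster 2 and 4747 CPM in cluster 4. S100a6, a calcium-binding protein of many cell types, gave most of the summed level of the B-1 marker list. Of its 8 genes, 7 were over 2-fold higher in cluster 2 than in cluster 1, 7 in cluster 4 and 8 in cluster 12. Genes of other cell types passed it too: 3 of 4 monocyte, 3 of 5 neutrophil and 3 of 4 proliferation markers in cluster 2, and 5 of 6 macrophage and 3 of 4 NK cell markers in cluster 12. The B-1 list also summed to 3464 to 4100 CPM in clusters 7, 8 and 16, so it is not particular to B cells. The part of other cell types in these counts was not tested. Over all 14202 genes with 20 or more UMIs the same fold was passed by 23.2% in cluster 2, 5.69% in cluster 4 and 15.7% in cluster 12. Cd5, a surface marker of B-1a cells, was within 2-fold of cluster 1 (5.87 CPM) in clusters 2 (11.1 CPM) and 4 (4.73 CPM), and stood at 43.8 CPM in cluster 12. Cd5 is also a T cell gene, and the summed CPM of the 9 T lineage markers was 5780 in cluster 12 against 353, 593 and 233 in clusters 1, 2 and 4. The part of T lineage RNA in the cluster 12 values was not tested. The 665 cells of cluster 2 had a mean of 2296 UMIs, against 5925 in cluster 1, 11201 in cluster 4 and 11884 in cluster 12.

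Beyond the B-1 list, a few heavy segments held much of the heavy V UMIs of cluster 4. Ighv4-1 was its leading heavy segment, with 116 of 514 heavy V UMIs, or 22.6% (19.0 to 26.4). It had 3, 6 and 2 UMIs in clusters 1, 2 and 12, so the cluster 4 share was 11.1 times (3.72 to 54.8) that of cluster 1. Ighv1-55 followed with 66 UMIs (12.8%, 10.1 to 16.0), against 7, 4 and 3 in clusters 1, 2 and 12. Its share ratio was 2.71 (1.25 to 7.01) over cluster 1 and 2.57 (0.841 to 12.8) over cluster 12. Ighv10-1 (42 UMIs in cluster 4) and Ighv2-2 (40) took 8.17% and 7.78% there. Their shares of 5.41% each in cluster 1 lay within 2-fold of these. Over cluster 2 the share ratio was 7.08 (1.20 to 287) for Ighv2-2, which had 1 UMI there, and 1.24 (0.524 to 3.57) for Ighv10-1. Over cluster 12 the ratios were 2.33 (0.605 to 19.9) and 1.23 (0.445 to 4.71). Only 75.9% of 100-base windows of Ighv2-2 are found in no other gene. The low end of cluster 4 was as distinct. Ighv1-82 had 12, 8 and 9 UMIs in clusters 1, 2 and 12 but 0 of 514 in cluster 4, which allows a share of up to 0.584%. Ighv3-6 took 6.08%, 9.89% and 16.7% of heavy V UMIs in clusters 1, 2 and 12 and 1.36% (0.549 to 2.79) in cluster 4. Ighv1-80 (0.389%), Ighv1-64 (0.973%), Ighv1-26 (0.584%) and Ighv1-72 (0.778%) were likewise under 1% in cluster 4. In cluster 1 these 4 segments took between 4.05% and 8.11%. Ighv5-4 took 8.79% in cluster 2, 2.70% in cluster 1 and 1.36% in cluster 4.

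Most of these scarce segments belong to the Ighv1 family, the largest heavy V family of the mouse. The 11 Ighv1 members together gave 56.8% (48.4 to 64.9) of heavy V UMIs in cluster 1, 52.7% (42.0 to 63.3) in cluster 2, 50% (36.8 to 63.2) in cluster 12 and 25.9% (22.1 to 29.9) in cluster 4. The share in cluster 4 was 0.456 times (0.344 to 0.606) that in cluster 1. When the 183 annotated heavy V genes were split at the middle of their order along the locus, 78 of 92 Ighv1 genes lay on the side farther from the J segments. The 12 members on that side gave 62.2% (53.8 to 70.0) of heavy V UMIs in cluster 1 and 26.3% (22.5 to 30.3) in cluster 4. These 12 are the 11 Ighv1 members and Ighv8-12, so the split largely restates the family share and says nothing separate about position. The family and locus shares cover members only. They were not computed without the minimum, which leaves out most of the 92 Ighv1 genes. Segments of the family are alike: only 57.2% of 100-base windows of Ighv1-72 are found in no other gene, so its UMIs are uncertain.

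Among light segments Iglv1 stood out in cluster 4. Iglv1, the most used lambda segment of the mouse, gave 686 of 1935 light V UMIs there, or 35.5% (33.3 to 37.6). In clusters 1, 2 and 12 it gave 26, 24 and 24 UMIs, or 13.3% (8.85 to 18.8), 13.1% (8.59 to 18.9) and 16.6% (10.9 to 23.6). Iglv1 was the leading light segment of all 4 clusters, and its cluster 4 share was 2.67 times (1.81 to 4.12) that of cluster 1. Iglv3 went the other way, with 10.7%, 12.02% and 13.1% in clusters 1, 2 and 12 and 4.03% (3.199 to 5.01) in cluster 4. The sequences of these leading cluster 4 segments are shown as above, Iglv1 on chr16:19085017-19085500 and Ighv4-1 on chr12:113948282-113948796 (GRCm38, both minus strand).
Ighv4-1: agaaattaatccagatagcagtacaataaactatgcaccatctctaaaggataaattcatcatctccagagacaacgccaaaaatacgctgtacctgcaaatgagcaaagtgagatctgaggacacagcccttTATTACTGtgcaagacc
Iglv1: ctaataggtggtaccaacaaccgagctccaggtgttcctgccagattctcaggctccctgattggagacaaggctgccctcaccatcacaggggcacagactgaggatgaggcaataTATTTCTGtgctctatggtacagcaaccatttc

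Kappa segments gave 75.0% (68.3 to 80.9) of light V UMIs in cluster 1, 73.8% (66.8 to 79.98) in cluster 2, 68.3% (60.04 to 75.7) in cluster 12 and 59.7% (57.5 to 61.9) in cluster 4. Leaving out a lambda segment must raise the kappa share of any cluster. Without Iglv1 it was 86.5%, 84.9%, 81.8% and 92.5% in clusters 1, 2, 12 and 4, so cluster 4 turned from the lowest to the highest. The lambda V share of cluster 4 was 1.61 times (1.21 to 2.20) that of cluster 1 and 1.27 times (0.943 to 1.75) that of cluster 12. All these shares cover members, which include all 3 lambda rows but only 28 of 160 kappa rows. The minimum thus lowers the kappa share. With all 348 V rows it was 81.4%, 81.1%, 76.4% and 62.4% in clusters 1, 2, 12 and 4, values beyond the member intervals. Cluster 4 stayed the lowest. Constant genes gave another order, with lambda lowest in cluster 4: Igkc made up 77.8%, 86.3%, 76.5% and 89.2% of light constant UMIs in clusters 1, 2, 12 and 4. Per 100 lambda constant UMIs there were 2.47 (2.29 to 2.65) lambda V UMIs in cluster 4 and 0.456 (0.337 to 0.603) in cluster 1. For kappa the numbers were 0.440 (0.415 to 0.467) and 0.391 (0.330 to 0.460), which overlap. In cluster 4 kappa and lambda thus differed in V UMIs per constant UMI. They differed in cluster 2 as well, with 1.15 (0.845 to 1.52) for lambda and 0.514 (0.430 to 0.608) for kappa. In cluster 12 the intervals overlap, with 0.740 (0.541 to 0.988) and 0.489 (0.397 to 0.596), as they do in cluster 1. V shares in clusters 2 and 4 therefore do not measure how much each chain was used.

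Among kappa segments, Igkv3-5 and Igkv5-45 took larger shares in cluster 4. Igkv3-5 gave 101 of 1935 light V UMIs there (5.22%) and 3 of 196 in cluster 1 (1.53%), a ratio of 3.41 (1.13 to 16.8). Igkv5-45 gave 95 UMIs in cluster 4 (4.91%) and 1 in cluster 1, a ratio of 9.62 (1.69 to 384). Other segments with many UMIs in cluster 4 did not separate from cluster 1 as shares. The share ratio was 2.35 (0.979 to 7.37) for Igkv12-89, 2.13 (0.695 to 10.6) for Igkv3-12 and 2.58 (0.679 to 21.9) for Igkv8-27. Igkv12-89 took 5.99% in cluster 4 and 6.21% in cluster 12. Igkv8-21 gave 53 UMIs in cluster 4, 0 in clusters 1 and 12 and 1 in cluster 2. Igkv1-110 took 9.84% of light V UMIs in cluster 2, 8.28% in cluster 12 and 3.77% in cluster 4. Igkv1-117 was common in all 4 clusters, with 134 UMIs in cluster 4 and shares between 6.93% and 9.84% in the 4 clusters. Igkv12-44 (11.2% in cluster 1, 1.19% in cluster 4) and Igkv6-15 (7.14% and 0.724%) were the reverse case. The Igkv1 and Igkv12 families took 17.3% and 16.3% of light V UMIs in cluster 1, and 11.1% and 10.7% in cluster 4. Several of these segments share sequence with neighbours: 67.1% of 100-base windows of Igkv5-45 and 78.8% of those of Igkv3-5 are found in no other gene.

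**Figure D2:**
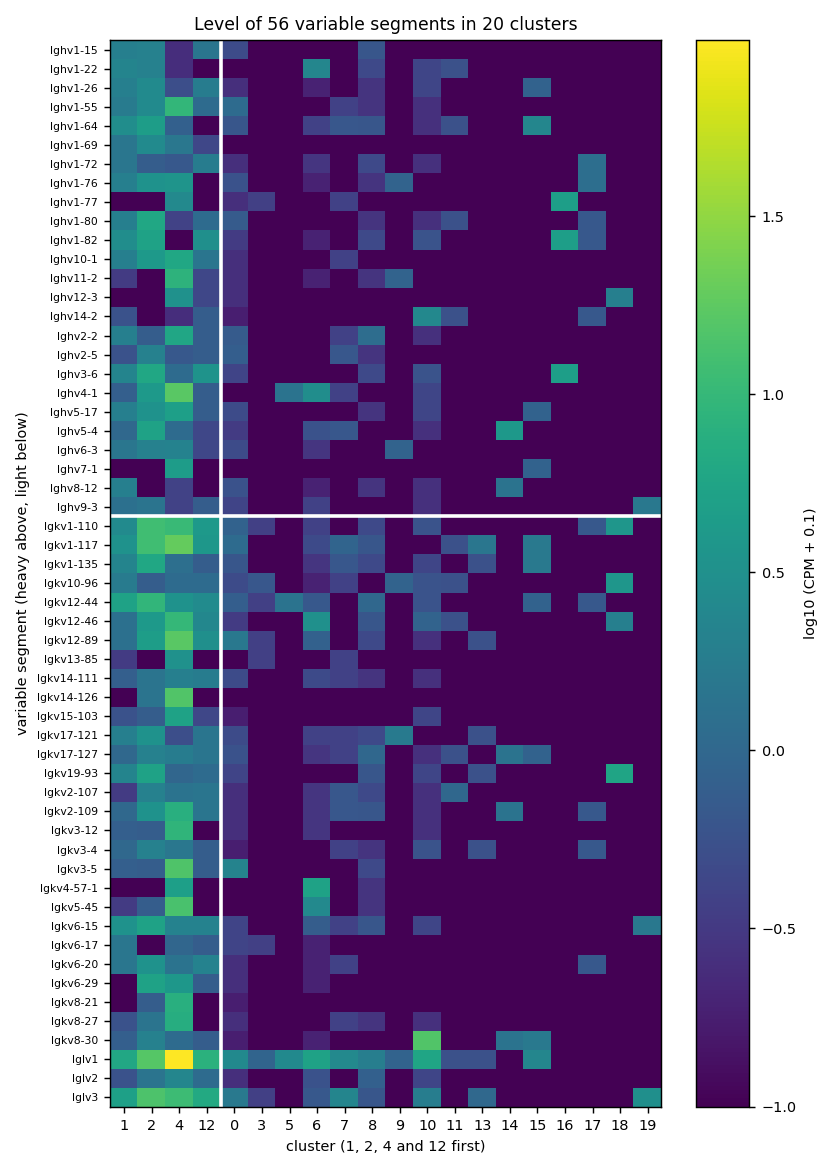
Level of the 56 segments (rows, heavy above and light below) in the 20 clusters (columns, clusters 1, 2, 4 and 12 left of the white line), as log10 of CPM + 0.1. The brightest cell is Iglv1 in cluster 4 (98.3 CPM), and Igkv8-30 stands out in cluster 10 (15.1 CPM).

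Among the members, V UMIs were most concentrated in cluster 4. For heavy segments this order was lost with a minimum of 50 UMIs, and for light segments it was lost without Iglv1. The effective number of segments, the inverse Simpson index, is the number of equally frequent segments that would give the same concentration. For heavy segments it was 18.6 (16.9 to 20.6) in cluster 1, 15.03 (13.0 to 17.8) in cluster 2, 11.6 (8.85 to 16.9) in cluster 12 and 9.22 (8.27 to 10.4) in cluster 4. For light segments it was 14.7 (12.6 to 17.7), 14.0 (11.9 to 16.9) and 13.1 (10.7 to 16.8) in clusters 1, 2 and 12, and 6.62 (6.08 to 7.27) in cluster 4. In the heavy chain the intervals of clusters 1 and 2, of 2 and 12 and of 12 and 4 overlap. In the light chain those of clusters 1, 2 and 12 all overlap, and cluster 4 lies below them. Drawing 60 heavy V UMIs from each cluster would give on average 20.03, 18.0, 19 and 15.01 different members in clusters 1, 2, 12 and 4. In 145 light V UMIs the numbers were 25.9, 26.6, 24 and 23.8. With all 348 rows the heavy numbers rose to 42.6, 33.8, 27.8 and 12.2 in clusters 1, 2, 12 and 4. The light numbers rose to 24.7, 24.6, 21.8 and 7.61, so cluster 4 stayed the lowest in both chains. With a minimum of 50 UMIs the heavy numbers were 4.88, 4.25, 5.16 and 4.93, so cluster 4 was no longer the lowest. Light numbers at 50 UMIs were 8.12, 8.43, 7.43 and 5.46. Without Iglv1 the light numbers were 14.9, 13.9, 14.2 and 16.4, so cluster 4 turned from the lowest to the highest.

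**Figure D3:**
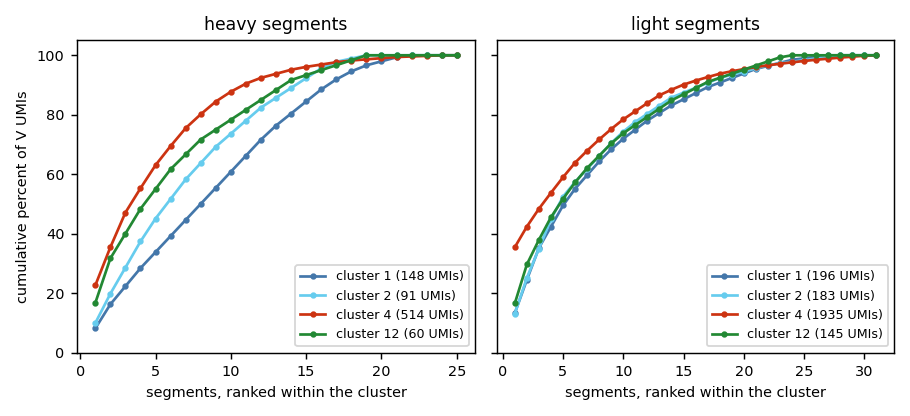
Cumulative percent of heavy (left) and light (right) V UMIs against segments ranked by UMIs within each cluster. In cluster 4 the 5 leading segments hold 63.0% of heavy and 59.0% of light V UMIs, against 33.8% and 49.5% in cluster 1.

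Summed over the members, V level was highest in cluster 4, with 80.8, 179, 351 and 69.0 CPM in clusters 1, 2, 4 and 12. The minimum favours the cluster with the most V UMIs (above). Over all clusters the members hold 69.8% of heavy and 82.0% of kappa V UMIs. Levels over all 348 V rows were not computed, so this order holds for members only. Of the 56 members, 28 were over 2-fold higher and 9 over 2-fold lower in CPM in cluster 4 than in cluster 1, with a pseudocount of 0.5 CPM. Over all genes with 20 or more UMIs, 5.69% were higher and 6.96% lower. The median log2 difference was 1.04 for members and -0.14 for all genes. Light segments were higher in 19 of 31 and lower in 1, while heavy segments were higher in 9 of 25 and lower in 8. As shares of the chain, which leaves out the overall level, 13 members were higher and 19 lower. In cluster 2, 19 members were higher (all genes 23.2%) and 3 lower (6.08%), and in cluster 12, 3 were higher (15.7%) and 10 lower (2.47%). The share of V segments over 2-fold higher in cluster 2, with a median of 0.69 against 0.36 for all genes, is to be read against that large background. Per cell the order changed: cluster 2 had 0.861 times the V UMIs of cluster 1, cluster 4 had 8.22 times and cluster 12 had 1.71 times.

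Several other genes of antibody production were higher in cluster 4 than in cluster 1. The joining chain gene Jchain, which links IgM and IgA into polymers, stood at 2597 CPM in cluster 4 and 10.8 in cluster 1. Igha and Ighg1, constant genes of switched antibodies, stood at 1820 and 511 CPM against 7.04 and 1.17. Ighd, expressed by naive B cells, stood at 791 CPM in cluster 1 and 140 in cluster 4. Of 11 constant genes with enough UMIs, 7 were over 2-fold higher in cluster 4 and 1 lower, and of 6 joining chain and secretion genes 4 were higher. Of 8 receptor signalling genes 0 passed that fold in either direction, where 5.69% of all genes were higher and 6.96% lower, so that count is near the background. Among them was Cd79a, a signal chain of the B cell receptor (3376 CPM in cluster 1, 2248 in cluster 4). Of the 3 genes for octamer-binding factors and their coactivator that act on V promoters, Pou2f1, Pou2f2 and Pou2af1, 0 passed it in cluster 4. In cluster 2 Pou2f1 passed it (92.3 against 44.8 CPM), as did 23.2% of all genes, so both counts are near the background. Vpreb3, listed here with genes of the precursor receptor, was at 299 CPM in cluster 1 and 21.2 in cluster 4. The other such genes were nearly absent: Vpreb1 had 2 and 4 UMIs in clusters 1 and 4, and Vpreb2 and Igll1 had 0 in both. In cluster 12 the recombinase gene Rag1 stood at 494 CPM and Dntt, which adds bases at the V junctions, at 370 CPM, against 21.4 and 19.5 in cluster 1. T lineage markers are also high in cluster 12 (above), and their part in these values was not tested.

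V UMIs also appeared outside the B cell clusters, which held 76.0% (74.6 to 77.2) of member UMIs. The other 16 clusters held 1036 UMIs, or 24.0%, at 3.27 CPM in cluster 3 to 33.9 CPM in cluster 10, below the 69.0 CPM of cluster 12. B cell markers were present there too, with Cd79a levels of 674, 507 and 294 CPM in clusters 0, 10 and 6, all 3 named macrophages in the deposited annotation. Macrophage markers summed to 6135, 1336 and 272 CPM in clusters 0, 10 and 6. In cluster 6 T lineage markers summed to 7068 CPM and proliferation markers to 2973 CPM, so its markers go against that name. The part of free RNA and of doublets in the V UMIs outside the B cell clusters was not tested. Heavy V UMIs per 100 heavy constant UMIs were 0.583 (0.474 to 0.710) in cluster 0 and 0.587 (0.537 to 0.640) in cluster 4, and 1.01 (0.852 to 1.19) in cluster 1. In cluster 0 the composition differed from cluster 4. Igkv14-126 had 0 of 192 light V UMIs and Ighv4-1 0 of 99 heavy ones, where the cluster 4 shares would give 10.3 and 22.3. Igkv3-5 had 27 UMIs, or 14.1% (9.48 to 19.8), against 5.22% (4.27 to 6.31) in cluster 4.

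**Figure D4:**
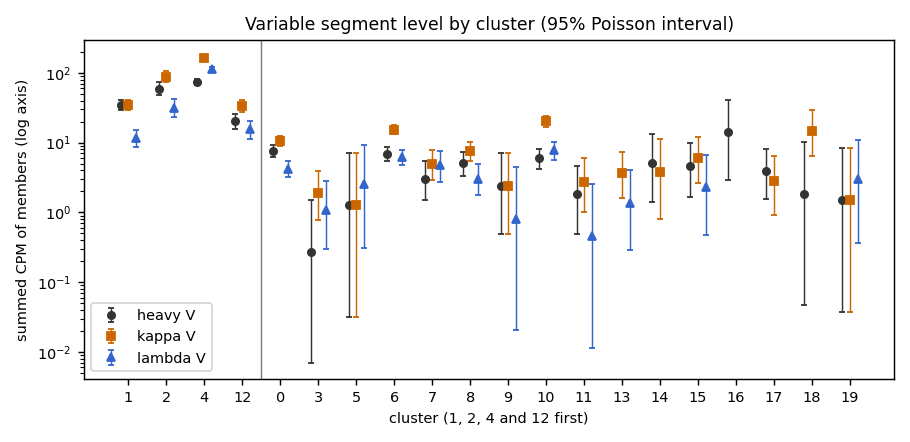
Summed level of heavy, kappa and lambda members in each cluster, in CPM on a log axis, with 95% Poisson intervals; values of 0 are not drawn. Clusters 1, 2, 4 and 12, left of the line, have higher points than all others in each chain; among the others, heavy is highest in cluster 16 (14.1 CPM, from 3 UMIs) and kappa in cluster 10 (20.2 CPM).

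Cluster 10, and in part cluster 6, had frequent V segments that were scarce in the B cell clusters. Cluster 10 held 94 of the 114 UMIs of Igkv8-30, or 54.0% (46.3 to 61.6) of its light V UMIs. In clusters 1, 2, 4 and 12 that segment gave 3, 3, 7 and 2 UMIs. Ighv14-2 gave 15 of its 23 UMIs in cluster 10, or 40.5% (24.8 to 57.9) of heavy V UMIs there, and at most 2 in any other cluster. The effective number of light segments in cluster 10 was 2.95 (2.46 to 3.68). The 8 plasma cell markers summed to 656 CPM in cluster 10 and 3758 CPM in cluster 4. Sdc1 (23.3 against 9.46 CPM) and Xbp1 (204 against 117) were higher in cluster 10, and the other 6 were lower, among them Jchain (312 against 2597), Mzb1 (74.3 against 918), Irf4 (13.0 against 47.0) and Tnfrsf17 (0.161 against 9.74). Without Ighv14-2, heavy V UMIs per 100 heavy constant UMIs fell from 0.445 to 0.265 in cluster 10.

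In cluster 6, Ighv4-1 gave 30 of 74 heavy V UMIs (40.5%, 29.3 to 52.6) and Ighv1-22 gave 24 (32.4%, 22.0 to 44.3). Ighv4-1 was also the leading heavy segment of cluster 4, but Ighv1-22 had 1 UMI in cluster 4 and 9 in cluster 1. Igkv4-57-1 and Iglv1 tied as leading light segments of cluster 6, with 55 of 230 UMIs each (23.9%). Igkv4-57-1 gave 55 UMIs in cluster 6, 33 in cluster 4, 1 in cluster 8 and 0 in the other 17 clusters. Igkv12-46 gave 33 and 68 UMIs in clusters 6 and 4, and Igkv5-45 gave 26 and 95. Igkv14-126 had 0 of 230 light V UMIs in cluster 6, which allows up to 1.30%, where the cluster 4 share would give 12.4. Igha stood at 74.4 CPM and Jchain at 205 CPM in cluster 6. The 8 plasma cell markers, Jchain among them, had a sum of 379 CPM there. That sum was 489 CPM for cluster 1 and 3758 CPM for cluster 4. Mzb1 (76.0 against 352 CPM), Irf4 (10.1 against 76.5) and Sdc1 (3.38 against 4.93) were lower than in cluster 1. Jchain, Xbp1, Prdm1, Derl3 and Tnfrsf17 were higher. Intervals of Sdc1, Prdm1 and Derl3 overlap between the clusters. The segments are shown for clusters 10 and 6, as above.
Ighv14-2: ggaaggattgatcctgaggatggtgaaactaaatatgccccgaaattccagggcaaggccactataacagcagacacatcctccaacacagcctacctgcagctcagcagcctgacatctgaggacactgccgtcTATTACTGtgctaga
Igkv8-30: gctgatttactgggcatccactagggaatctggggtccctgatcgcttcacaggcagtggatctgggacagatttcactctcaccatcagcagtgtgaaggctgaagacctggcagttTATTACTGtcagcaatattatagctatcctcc
Ighv1-22: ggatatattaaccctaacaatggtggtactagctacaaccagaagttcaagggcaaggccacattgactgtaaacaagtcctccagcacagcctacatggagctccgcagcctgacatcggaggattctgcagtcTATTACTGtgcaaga
Igkv4-57-1: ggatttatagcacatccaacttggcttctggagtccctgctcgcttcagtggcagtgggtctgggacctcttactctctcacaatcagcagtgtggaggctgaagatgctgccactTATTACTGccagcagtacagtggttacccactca

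Their places on GRCm38, all on the minus strand, are chr12:113994469-113994898 for Ighv14-2, chr6:70117061-70117620 for Igkv8-30, chr12:114746273-114746706 for Ighv1-22 and chr6:69544359-69544907 for Igkv4-57-1. In these 150 bases Ighv14-2 and Ighv1-22 are 76.7% identical, and Igkv8-30 and Igkv4-57-1 75.5%. The counts do not say how many cells carried a segment, nor which heavy segment was paired with which light one.

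**Figure D5:**
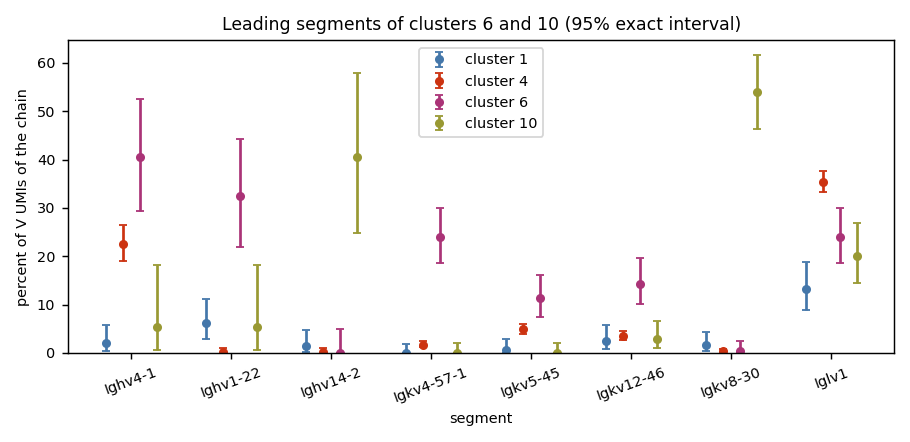
Share of V UMIs of the chain, in percent, for leading segments of clusters 6 and 10 and for Iglv1, in clusters 1, 4, 6 and 10, with exact 95% intervals. Igkv8-30 reaches 54.0% in cluster 10 and under 2% in the other 3 clusters, and Ighv4-1 is high in clusters 4 and 6.

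In the smallest clusters 1 to 3 UMIs set the levels. Igkv19-93 reached 5.53 CPM in cluster 18 from 3 UMIs, and Ighv1-82 reached 4.71 CPM in cluster 16 from 1 UMI, levels that give no order between clusters. Both libraries contributed to every B cell cluster. Cells of the nt-LNA library made up 51.6% (47.9 to 55.3) of cluster 1, 76.5% (73.1 to 79.7) of cluster 2, 72.7% (69.0 to 76.2) of cluster 4 and 75.2% (69.4 to 80.4) of cluster 12. Which library the V UMIs of a cluster came from cannot be told apart in these sums. The 2 libraries shared 2 cell barcodes.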

How the data were processed

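Droplet-based 3' single-cell RNA libraries (10x Chromium, NovaSeq) were made from 2 samples, 1 per treatment. The submitters' processing notes list Seurat, Cell Ranger 2.1.1 and the genome build mm9 without giving their roles. The authors deposited whole-number UMI counts for every gene, added up within each of 20 clusters with both libraries pooled, cluster names, and the number of cells (counts) per cluster and library. The sources used here do not state cell filters or doublet removal. A deposited normalized table was not used.

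From the counts, CPM (UMIs per 1000000 of the cluster's total) and shares among the member V UMIs of a chain were computed, with exact Clopper-Pearson or Poisson 95% intervals. Totals ran from 212515 to 12985745 UMIs per cluster, 70206506 in all. Intervals of effective numbers used the multinomial variance of the Simpson index. UMIs were not scaled to length, since 3' libraries count molecules, and member transcripts are 313 to 480 bases long. V UMIs were few beside constant UMIs, with 0.440 kappa V UMIs per 100 Igkc UMIs in cluster 4. A V row thus counts only a small part of the antibody molecules. With 1 library per treatment and pooled counts, no test was made.

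All 56 members matched a GENCODE M21 transcript. The share of 100-base windows found in no other gene's transcript was 100% for 32 members and under 80% for 7. No V gene matched the RefSeq promoter table, so the planned promoter motif search was not made. Members, lists and comparisons were chosen with earlier results of these data known. Named segments are the 5 heavy and 5 light with the largest share in each B cell cluster, those at 10% or more, the 5 of each chain with the largest CPM ratio between these clusters (50 or more UMIs), the 5 highest elsewhere, those at the minimum and the B-1 list. Others, such as Ighv14-2, Igkv12-46, Igkv13-85 and Igkv15-103, were named after their values were seen. Alternatives changed the UMI minimum, denominators, pseudocount, background and near-identical copies. Python 3.11.15, numpy 2.4.6, pandas 2.3.3, scipy 1.17.1, matplotlib 3.10.9 and Biopython 1.88 were used, and the calculations were tested on simulated data.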

Additional observations from a re-analysis of the deposited data

How the results depend on the processing

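No paired analysis was possible because there is 1 library per treatment and the counts pool both. Of 170 alternative values over 39 results, 95 stayed within the main interval or count range and 75 did not. With 50 UMIs the B-1 heavy share of cluster 4 fell to 16.8%, since Ighv12-3 and Ighv7-1 drop out, and with the leading segment left out it was 28.4% (light 8.33%). The effective number of heavy segments in cluster 4 was 12.2 with no minimum, 4.93 with 50 UMIs, 10.4 without Ighv4-1 and 8.17 without segments that have near-identical copies (under 80% of windows found in no other gene), an alternative chosen after seeing the data. For light segments these were 7.61, 5.46, 16.4 and 5.19. The kappa share of cluster 4 was 62.4%, 56.4%, 92.5% and 53.6%. The leading heavy share there was 32.5% with 50 UMIs, and the leading light share 33.0% with no minimum, 39.2% with 50 UMIs and 40.8% without near-identical copies.

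The summed level of members in clusters 2, 4 and 12 over cluster 1 was 2.22, 4.35 and 0.855 times by CPM and 0.861, 8.22 and 1.71 times per cell. Cluster 2 was at 1.79 times with immunoglobulin, ribosomal and mitochondrial genes left out of the total. For segments over 2-fold from cluster 1, as shares of the chain, the higher and lower counts were 13 and 19 in cluster 4, 4 and 5 in cluster 2, and 5 and 6 in cluster 12. With a pseudocount of 5 CPM they were 15 and 0, 3 and 0, and 0 and 0. With 0.1 CPM, 7 were lower in cluster 2 and 5 higher in cluster 12. With no minimum, 19 were lower in cluster 4, 61 higher and 10 lower in cluster 2, and 10 higher and 24 lower in cluster 12. With 50 UMIs, 0 were lower in cluster 4, 11 higher and 1 lower in cluster 2, and 1 higher and 3 lower in cluster 12. Subtracting the mean CPM of the other clusters moved none of the cluster 4 shares, effective numbers or kappa shares beyond their intervals. Depth limits clusters 2 and 12 most, with 91 and 60 heavy V UMIs.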
